A study of Mus musculus with 8 samples.

Results

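The genes described here encode the transcription factors Tfeb, Tfe3 and Mitf, the folliculin complex (Flcn, Fnip1 and Fnip2) and the GTPases RagC and RagD (Rragc and Rragd). They were taken by symbol as 8 of the 38924 genes in the expression matrix, each with a single line, and all 8 passed the filter on low values (at least 1 in at least 2 libraries). RNA was sequenced from 3 libraries of inner cell mass (ICM, the inner cells of the blastocyst) at day 3.5, 3 of ICM from diapaused blastocysts and 2 of epiblast taken after implantation, at day 6.5. All embryos were of the C57BL/6 strain and came from females without a stated genetic modification. Diapause, in which the blastocyst reversibly halts before it implants, was induced on day 3.5 by tamoxifen together with 0.5 mg of Depo Provera, and these blastocysts were collected 5 days later. The ICM and the epiblast had no such treatment, so diapause, embryo age and the agents cannot be told apart. Trophectoderm was lysed with antibody and complement, each library pooled about 50 embryos, and the RNA was amplified by a method for very small inputs. Levels are adjusted TPM, a deposited value per gene that by its name is scaled for transcript length; what was adjusted is not stated.

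At the lysosome, Rag GTPases bring the kinase complex mTORC1 to the membrane when amino acids are present, as pairs of RagA or RagB with RagC or RagD. Folliculin, bound to Fnip1 or Fnip2, activates the GTPase function of RagC and RagD, and in that state the Rag pair presents Tfeb and Tfe3 to mTORC1, whose phosphorylation keeps them in the cytoplasm. In the nucleus these factors, the MiT/TFE family, bind E-boxes of lysosomal and autophagy genes, the CLEAR network, and Flcn, Fnip2 and Rragd are known among their targets. In mouse embryonic stem cells, folliculin and cytoplasmic Tfe3 are known for a role in the exit from naive pluripotency, with Esrrb as a Tfe3 target. RNA levels carry no information on phosphorylation or on where a protein lies.

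Sums of the values ranged from 720674 to 1179026 per library and 14634 to 15130 genes reached 1, while sequencing depth is unknown because no counts are used here. Markers of the labelled tissues were present. The pluripotency factor Pou5f1 lay between 100 and 135 in the 6 ICM and diapaused ICM libraries, and at 70.5 and 66.2 in epiblast. Sox2, another of the 6 inner cell mass and epiblast markers, was low throughout, from 0.994 to 4.68. Of these 6 markers, 5 were called lower and 0 higher in epiblast than in ICM. In diapaused ICM against ICM, 1 was called lower and 0 higher. The primed epiblast factor Otx2 lay at 53 and 64.9 in epiblast against at most 2.42 elsewhere. The summed level of 10 primitive endoderm markers (Gata4, Gata6, Pdgfra, Sox17, Dab2 and others) was 68.6 to 85.2 in ICM, 240 to 381 in diapaused ICM and 16.8 to 28.5 in epiblast. Dab2 and Lama1 had the largest parts in diapaused ICM (means 115 and 61.3). The summed level of 11 trophectoderm markers was 41.1 to 59.7, 54.5 to 187 and 59.3 to 67.4 in the same order. The top value was that of diapaused ICM replicate 3, with Krt18 at 121. Of the 8 trophectoderm markers tested, 1 was called higher in diapaused ICM than in ICM, Gata3 (1.41, 0.531 and 2.43 in ICM against 9.2, 4.81 and 11.2, limma's adjusted p = 0.0094), and 0 were lower. Cdx2 did not exceed 0.901 in diapaused ICM. The 8 visceral endoderm markers summed to 17 to 33.2 in ICM, 61.6 to 71.6 in diapaused ICM and 35.9 to 77.8 in epiblast. Although the labels give the sex as female, Y-linked transcripts were above 0 in every library (Eif2s3y, 7.66 to 25.9). Tfe3 is on the X chromosome, and the part of embryo sex in its level was not tested.

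By group mean, each group had a different leading transcript of the MiT/TFE family: Mitf in ICM, Tfeb in diapaused ICM and Tfe3 in epiblast. This ranking of different genes rests on a scaling for transcript length that only the name of the values gives. In diapaused ICM Tfeb overlapped Mitf and Tfe3, and Mitf exceeded it in replicate 1 (7.82 against 4.25). The values of Mitf and Tfe3 also overlapped in ICM. Tfeb, a master regulator of lysosomal genes, stood at 1.3, 1.01 and 0.62 adjusted TPM in ICM, 4.25, 8.63 and 7.86 in diapaused ICM, and 2.77 and 2.54 in epiblast. The 3 groups did not overlap, with ICM lowest and diapaused ICM highest. Its mean was 6.91 ± 2.34 (SD, n = 3) in diapaused ICM against 0.975 ± 0.34 (SD, n = 3) in ICM, a ratio of 7.09. The fitted difference on the log2(value + 1) scale, which understates changes at such low levels, was 1.97 ± 0.27 (SE, limma's adjusted p = 0.002). Against epiblast (2.66 ± 0.167, SD, n = 2) Tfeb was 1.07 ± 0.30 higher in diapaused ICM (SE, limma's adjusted p = 0.025). Epiblast stood 0.90 ± 0.30 above ICM, which narrowly missed the threshold of 0.05 (SE, limma's adjusted p = 0.051).

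Tfe3 followed another order and was higher in epiblast than in both other groups. It measured 4.87, 2.85 and 6.98 in ICM, 3.27, 5.1 and 5.27 in diapaused ICM, and 17.3 and 14.1 in epiblast. The epiblast libraries lay above all 6 others, whereas ICM and diapaused ICM overlapped. Epiblast exceeded ICM by 1.56 ± 0.33 on the log2 scale (SE, limma's adjusted p = 0.0089), 3.2 times by the ratio of means, and exceeded diapaused ICM 3.45 times (log2 difference, diapaused ICM minus epiblast, -1.60 ± 0.33, SE, limma's adjusted p = 0.0068). Between diapaused ICM (4.55 ± 1.11, SD, n = 3) and ICM (4.9 ± 2.06, SD, n = 3) the difference was -0.05, with a 95% interval from -0.72 to 0.62 (limma's adjusted p = 0.95). Without epiblast replicate 1 the adjusted p of the 2 Tfe3 calls became 0.076 against ICM and 0.059 against diapaused ICM.

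Mitf, the family member best known from pigment cells, fell to a low level in epiblast. It measured 8.63, 4.97 and 10.2 in ICM, 7.82, 2.83 and 6.59 in diapaused ICM, and 0.312 and 0.465 in epiblast. ICM and diapaused ICM overlapped, and both epiblast libraries lay far below them. The ICM mean was 20.4 times the epiblast mean and the diapaused ICM mean 14.8 times. On the log2 scale epiblast was -2.64 ± 0.39 from ICM (SE, limma's adjusted p = 0.0017), and diapaused ICM was 2.20 ± 0.39 above epiblast (SE, limma's adjusted p = 0.0035). The diapaused ICM differed from ICM by -0.44, with a 95% interval from -1.24 to 0.36 (limma's adjusted p = 0.48). Tfec, the remaining family gene, reached at most 0.726, failed the filter and was not tested.

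The balance of Tfe3 to Tfeb within a library, which does not depend on scaling between libraries, separated diapaused ICM from both other groups. The ratio was 3.75, 2.83 and 11.3 in ICM, 0.769, 0.592 and 0.671 in diapaused ICM, and 6.24 and 5.54 in epiblast. By these values Tfeb thus exceeded Tfe3 in 3 of 3 diapaused libraries and in 0 of the other 5. Which gene of a pair is higher rests on the scaling for transcript length. A difference in the ratio between groups does not depend on a factor fixed for each gene. The mean log2 ratio differed by -2.87 between diapaused ICM and ICM (exact two-sided permutation p = 0.1) and by -3.13 between diapaused ICM and epiblast (exact two-sided permutation p = 0.2). These are the smallest p-values that groups of this size allow, so no ratio could pass 0.05 (adjusted over the 9 ratio tests, 0.36). Epiblast and ICM overlapped in this ratio (difference 0.25, exact two-sided permutation p = 0.8).

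**Figure D1:**
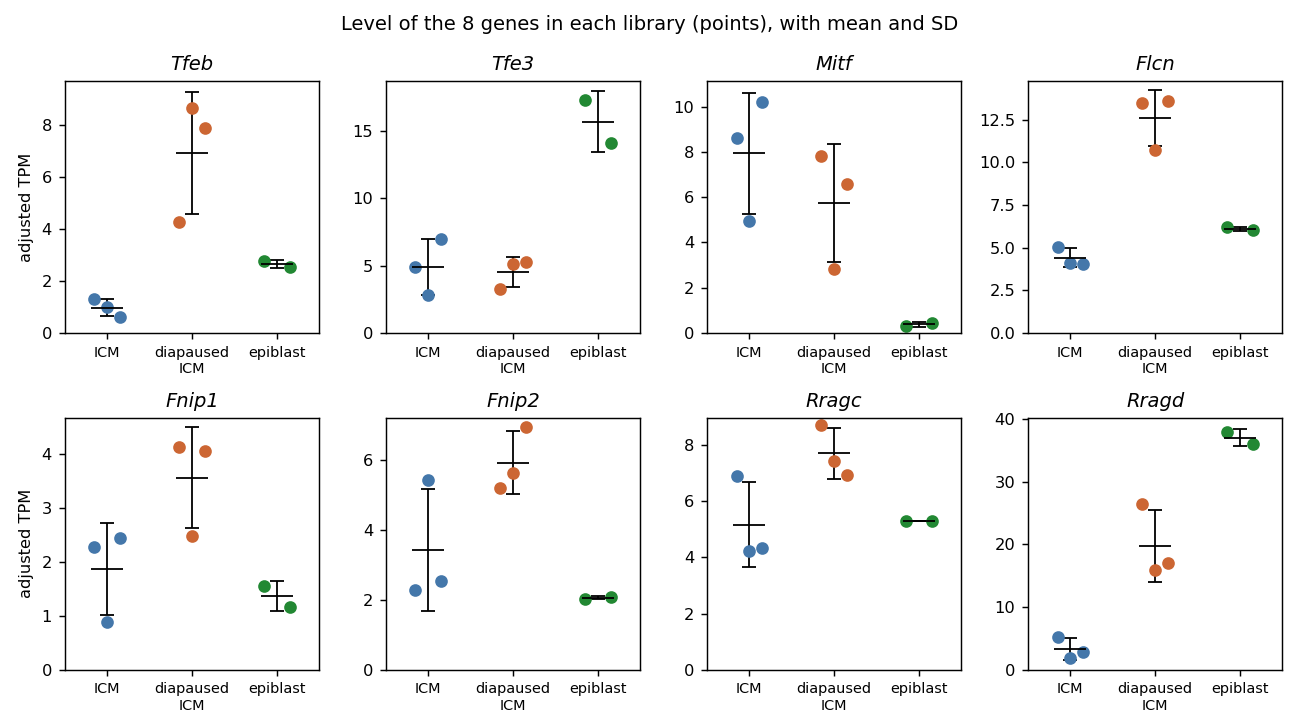
Adjusted TPM of each of the 8 genes (vertical axes from 0, a scale per gene) in the 3 groups; points are libraries, horizontal marks the group mean and bars the SD. Tfeb and Flcn are highest in diapaused ICM, Tfe3 and Rragd in epiblast, and Mitf is below 0.5 in both epiblast libraries.

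In the folliculin complex, Flcn rose in diapaused ICM, Fnip2 differed between diapaused ICM and epiblast, and Fnip1 passed no test. Flcn, the catalytic subunit that acts on RagC and RagD, measured 5.06, 4.09 and 4.07 in ICM, 13.5, 10.7 and 13.6 in diapaused ICM, and 6.19 and 6.02 in epiblast. The groups did not overlap, and diapaused ICM stood apart with every library above 10. Its mean of 12.6 ± 1.67 (SD, n = 3) was 2.86 times that of ICM (4.41 ± 0.562, SD, n = 3) and 2.06 times that of epiblast (6.11 ± 0.116, SD, n = 2). The log2 difference was 1.33 ± 0.19 against ICM (SE, limma's adjusted p = 0.0029) and 0.93 ± 0.22 against epiblast (SE, limma's adjusted p = 0.012). Epiblast differed from ICM by 0.40, with a 95% interval from -0.09 to 0.89 (limma's adjusted p = 0.2).

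Fnip1 and Fnip2 are alternative partners that stabilise folliculin. Fnip1 measured 2.27, 0.895 and 2.45 in ICM, 4.14, 2.48 and 4.06 in diapaused ICM, and 1.56 and 1.17 in epiblast. Diapaused ICM held the 3 highest values without overlap, but the differences of 0.69 ± 0.29 from ICM (SE, limma's adjusted p = 0.16) and 0.93 ± 0.32 from epiblast (SE, limma's adjusted p = 0.051) did not pass. Fnip2 measured 2.28, 5.42 and 2.54 in ICM, 5.2, 5.61 and 6.93 in diapaused ICM, and 2.03 and 2.08 in epiblast. ICM replicate 2 fell among the diapaused libraries and the other ICM libraries lay near the epiblast. Fnip2 was 2.87 times higher in diapaused ICM than in epiblast (log2 difference 1.17 ± 0.31, SE, limma's adjusted p = 0.019). That call was lost without the filter on low values (limma's adjusted p = 0.065). It was also lost without diapaused ICM replicate 3 (limma's adjusted p = 0.053). The Fnip2 difference of 0.71 ± 0.28 from ICM did not pass (SE, limma's adjusted p = 0.13), but did so without ICM replicate 2 (log2 difference 1.01, limma's adjusted p = 0.022). That library also set the Fnip2 to Fnip1 ratio apart, at 6.06 against 1 and 1.04 in the other ICM libraries. The ratio was 1.26 to 2.26 in diapaused ICM and 1.3 to 1.78 in epiblast, and it overlapped in all 3 comparisons (exact two-sided permutation p = 1 in each).

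The RagC and RagD genes, whose products take the same place in the Rag pair, were not called in the same comparisons: Rragd was higher in diapaused ICM and in epiblast than in ICM, while Rragc passed no test. Rragd measured 5.27, 1.8 and 2.9 in ICM, 26.4, 15.9 and 17.1 in diapaused ICM, and 38 and 36.1 in epiblast. The groups were fully separated in the order ICM, diapaused ICM, epiblast. Its mean of 19.8 ± 5.76 (SD, n = 3) in diapaused ICM was 5.96 times that of ICM (3.33 ± 1.77, SD, n = 3), and the epiblast mean of 37 ± 1.36 (SD, n = 2) was 11.1 times that of ICM. The log2 differences from ICM were 2.31 ± 0.32 for diapaused ICM (SE, limma's adjusted p = 0.0021) and 3.21 ± 0.36 for epiblast (SE, limma's adjusted p = 3.7e-04). The step between diapaused ICM and epiblast (-0.90 ± 0.36) did not pass (SE, limma's adjusted p = 0.08).

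Rragc measured 6.9, 4.23 and 4.34 in ICM, 8.71, 7.43 and 6.94 in diapaused ICM, and 5.3 and 5.29 in epiblast. The diapaused libraries lay above all others, ICM replicate 1 (6.9) coming close to the lowest of them. The log2 difference from ICM was 0.52, with a 95% interval from 0.02 to 1.02 (limma's adjusted p = 0.17), in diapaused ICM and 0.06, from -0.50 to 0.62 (limma's adjusted p = 0.88), in epiblast. From epiblast to diapaused ICM it was 0.46, from -0.10 to 1.02 (limma's adjusted p = 0.18). By the deposited values, Rragc therefore exceeded Rragd in every ICM library and was below it in every other one. This order again rests on the scaling for transcript length. The ratio of Rragd to Rragc was 0.763, 0.426 and 0.669 in ICM, 3.04, 2.14 and 2.47 in diapaused ICM, and 7.17 and 6.81 in epiblast. The mean log2 ratio was 2.07 higher in diapaused ICM than in ICM (exact two-sided permutation p = 0.1) and 3.54 higher in epiblast than in ICM (exact two-sided permutation p = 0.2). Diapaused ICM stood -1.47 from epiblast (exact two-sided permutation p = 0.2), and all 3 are again the smallest p-values possible.

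**Figure D2:**
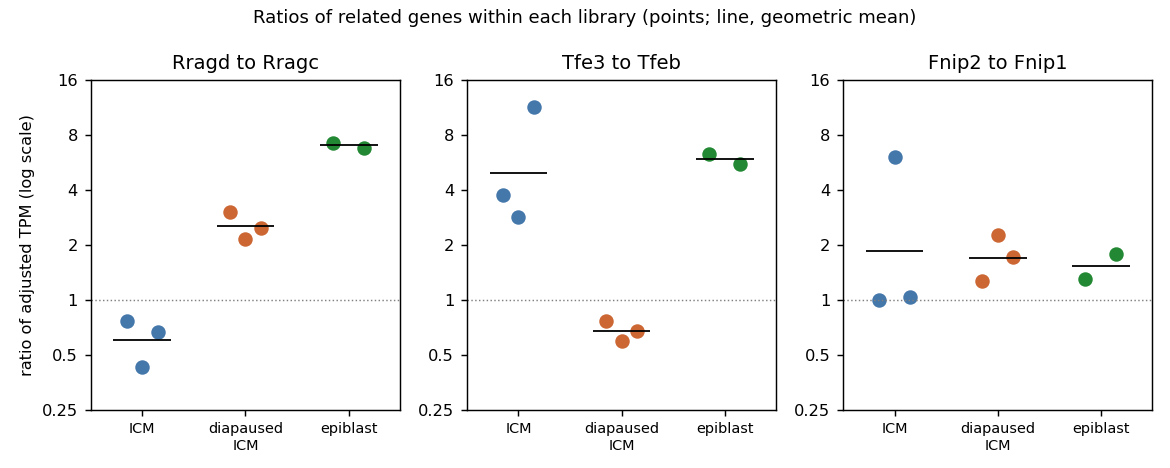
Ratio of adjusted TPM (log axis) of Rragd to Rragc, Tfe3 to Tfeb and Fnip2 to Fnip1 in each library (points) of the 3 groups, with the geometric mean as a line and equality dotted. The Rragd to Rragc ratio is below 1 in the 3 ICM libraries and above 2 in the other 5, and the Tfe3 to Tfeb ratio is below 1 only in the 3 diapaused libraries.

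The promoters of the RagC/RagD and Fnip1/Fnip2 pairs are shown because, in each pair, a single member held an E-box (CACGTG, the same on both strands) in the 150 bases before its start. They are printed 5′ to 3′ on the strand listed for the gene, from RefSeq on GRCm38.p6. They were matched by symbol, since the submitters' processing notes name another build, mm9. Bases just after the listed start were found in annotated transcripts of the gene for Fnip2, but not for Rragc, Rragd, Fnip1 or Flcn. A match anywhere in a transcript was accepted, so it does not establish the listed start of Fnip2. The listed starts of Rragc, Rragd, Fnip1 and Flcn, and distances to them, therefore remain uncertain. Capitals mark the E-box. Rragc lies at chr4:123917283-123917432 (+ strand), Rragd at chr4:32982848-32982997 (+ strand), Fnip1 at chr11:54438029-54438178 (+ strand) and Fnip2 at chr3:79567680-79567829 (- strand).
Rragc: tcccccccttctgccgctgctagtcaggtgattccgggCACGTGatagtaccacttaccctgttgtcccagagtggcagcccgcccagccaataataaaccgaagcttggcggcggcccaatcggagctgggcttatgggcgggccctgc
Rragd: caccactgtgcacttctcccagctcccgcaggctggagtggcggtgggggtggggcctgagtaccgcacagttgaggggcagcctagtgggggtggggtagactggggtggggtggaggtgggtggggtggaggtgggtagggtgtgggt
Fnip1: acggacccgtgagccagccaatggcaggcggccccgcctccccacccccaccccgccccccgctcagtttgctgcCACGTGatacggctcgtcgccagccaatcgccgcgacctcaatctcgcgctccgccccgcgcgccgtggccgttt
Fnip2: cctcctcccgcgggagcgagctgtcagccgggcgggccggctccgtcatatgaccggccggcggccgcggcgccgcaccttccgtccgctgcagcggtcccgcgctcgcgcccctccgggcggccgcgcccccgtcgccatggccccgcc
The E-box lay 112 to 107 bases before the listed start of Rragc and 75 to 70 bases before that of Fnip1. From 250 bases before to 50 after the start, CACGTG occurred in these 2 of the 13 promoters listed for the 8 genes, against 7.15% of all 32851 promoters. The longer CLEAR core TCACGTGA, which contains CACGTG, was in none of the 13 and in 0.974% of all promoters. CATGTG, another E-box form, searched on both strands, was in none of the 13 and in 14.2% of all. No match says only that these letters are missing from this window. Whether an E-box has a part in the level of any of the 8 genes was not tested. By comparison, CACGTG was in 12 of the 24 promoters of the lysosomal hydrolase and membrane protein list described next and TCACGTGA in 6, a list drawn from a network that is defined by this element.

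Between diapaused ICM and ICM, 3 of the 8 genes rose (Tfeb, Flcn and Rragd) and 0 fell, where 7.52% of the 17698 genes tested were called higher and 5.81% lower. The median log2 difference of the 8 was 0.70, against 0.00 over all genes tested. Of the genes upstream, Mtor, the kinase itself, did not pass (5.02 ± 0.333 in ICM, 4.22 ± 1.71 in diapaused ICM, SD, n = 3 each; limma's adjusted p = 0.58). Of 23 tested Rag partners and amino acid sensors, 1 rose and 1 fell (median -0.10). The stress-induced leucine sensor Sesn2 rose by 1.33 ± 0.20 (SE, limma's adjusted p = 0.0031). Sec13, which is a subunit of the GATOR complex as well as of vesicle coats and the nuclear pore, fell by 1.05 (limma's adjusted p = 0.012). Of 10 mTORC1, TSC and Rheb genes, 0 rose and 1 fell (median -0.24): the mTOR inhibitor Deptor, at 21.4 ± 3.93 in ICM and 10 ± 1.98 in diapaused ICM (SD, n = 3 each; limma's adjusted p = 0.025). Of 21 kinases, phosphatases and binding proteins that act on the factors, 2 rose and 4 fell (median 0.14). Prkaa2, a catalytic subunit of AMPK, rose from 0.738, 0.122 and 0.354 to 6.72, 5.38 and 6.26, and the calcineurin subunit Ppp3ca, part of a phosphatase that acts on Tfeb, rose by 1.45 ± 0.27 (SE, limma's adjusted p = 4.2e-04 and 0.0083). The 4 that fell were the phosphatase scaffold Ppp2r1a (-0.87 ± 0.21, SE, limma's adjusted p = 0.024) and 3 phosphoserine-binding adaptors of the family that holds phosphorylated factors in the cytoplasm: Ywhaq (-1.06 ± 0.22, SE, limma's adjusted p = 0.015), Ywhaz (-0.97 ± 0.21, SE, limma's adjusted p = 0.017) and Ywhah (-1.02 ± 0.26, SE, limma's adjusted p = 0.033). Ppp2r1a, Ywhaz and Ywhah are named here after their values were seen. The calls in the mTORC1 list went to 0 on leaving out ICM replicate 1 or 3 or diapaused ICM replicate 2 or 3, and those in the kinase list to 2 without ICM replicate 3.

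Among known targets of the factors, changes in diapaused ICM went both ways. Gpnmb, a lysosomal glycoprotein often used as a readout of MiT/TFE activity, measured 0.075, 0.000189 and 0.084 in ICM, 8.99, 18.1 and 21.5 in diapaused ICM, and 0.000681 and 0.00589 in epiblast. It was near 0 outside diapause (log2 difference from ICM 3.95 ± 0.30, SE, limma's adjusted p = 1.0e-04). Of the 11 tested autophagy and other targets 3 rose and 1 fell (median 0.53): the phagophore protein Wipi1 rose by 1.60 ± 0.28 (SE, limma's adjusted p = 0.0063), and the autophagosome protein Map1lc3b fell by 2.52 (limma's adjusted p = 2.0e-04), from 289 ± 54 to 49.2 ± 5.94 (SD, n = 3 each). The receptor Sqstm1 (0.53 ± 0.32, SE, limma's adjusted p = 0.33) and the mitochondrial coactivator Ppargc1a (1.25 ± 0.41, SE, limma's adjusted p = 0.081) did not pass. Of 23 lysosomal hydrolases and membrane proteins 4 rose and 2 fell (median 0.40), with acid ceramidase Asah1 at 28 ± 3.73 and 89.1 ± 19.4, and beta-galactosidase Glb1 at 21.4 ± 3.37 and 7.17 ± 0.798 (SD, n = 3 each). The lysosomal calcium channel Mcoln1 overlapped between the groups (34.9 to 70.8 and 42.6 to 85.9). Of 13 subunits of the V-ATPase, the proton pump of the lysosome, 2 rose and 0 fell (median 0.37), with Atp6v0b from 22.6 ± 1.16 to 58.6 ± 6.5 (SD, n = 3 each). Atp6v1a (1.04 ± 0.26, SE, limma's adjusted p = 0.032) was the other, and the count became 1 on leaving out any library but ICM replicate 2. The hydrolase count became 3 without ICM replicate 3.

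Markers of other cells moved with these differences. Of the 10 primitive endoderm markers 6 rose and 1 fell in diapaused ICM, where Tfeb, Flcn and Rragd were higher. The 1 that fell was the regulator Gata6 (mean 4.11 in ICM and 1.66 in diapaused ICM). Of the 6 visceral endoderm markers tested 2 rose (Apoe and Cubn) and 1 fell (Hnf4a), and of the trophectoderm markers Gata3 rose. In bulk pools, more cells of a type and more RNA per cell cannot be told apart, and the part of these markers in the differences was not tested. The summed primitive endoderm level was highest in diapaused ICM and lowest in epiblast. Of the tested visceral endoderm markers, Apoa1, Ttr and Cited1 had their highest mean in epiblast, Apoe and Cubn in diapaused ICM and Hnf4a in ICM. The summed level of the 9 blood and immune markers in the file was 5 to 10.1 in ICM, 47.8 to 134 in diapaused ICM and 2.43 to 4.08 in epiblast. It came mostly from Laptm5 and Cd68, which encode lysosomal membrane proteins (Cd68 at 80.6, 29.6 and 25.3 in diapaused ICM). The defining markers Ptprc, Csf1r and Tyrobp stayed at or below 0.399. The haemoglobin gene Hba-a1 reached 3.3 in diapaused ICM replicate 2 and 0.407 in replicate 3, against at most 0.0301 in ICM. Fcer1g reached 0.554 in diapaused ICM replicate 3. The part of blood or immune cells in the differences was not tested. Diapaused ICM replicate 1 had the highest Cd68 and the lowest Gpnmb of its group. Of the 8 genes, Mitf, Fnip1, Rragc and Rragd were highest in that library, Tfeb, Tfe3 and Fnip2 lowest, and Flcn in between.

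Between epiblast and ICM, 2 of the 8 genes rose (Tfe3 and Rragd) and 1 fell (Mitf), where 16.7% of all genes tested were called higher and 13.3% lower. The median of the 8 was 0.23, against 0.14 over all genes. Most of the tested hydrolases, V-ATPase subunits and naive pluripotency genes were called lower in epiblast, and the rest of each list did not pass. Of 23 hydrolases and membrane proteins 0 rose and 14 fell (median -1.58), including Glb1 (0.546 ± 0.11, SD, n = 2, in epiblast), the tetraspanin Cd63 from 296 ± 33.8 (SD, n = 3) to 22.4 ± 0.733 (SD, n = 2) and Mcoln1 from 49.4 ± 18.9 (SD, n = 3) to 7.46 ± 1.55 (SD, n = 2). Of 13 V-ATPase subunits 0 rose and 8 fell (median -1.12), led by Atp6v1h (-2.46 ± 0.32, SE, limma's adjusted p = 8.7e-04). That count became 4 without either epiblast library. Of the 11 other targets 1 rose and 2 fell (median -0.01), Map1lc3b by 3.27 (limma's adjusted p = 4.0e-05), and Hif1a rose by 0.89 ± 0.25 (SE, limma's adjusted p = 0.026).

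Esrrb, the Tfe3 target, measured 23.6, 40.8 and 26.3 in ICM, 34.9, 36.2 and 35.5 in diapaused ICM, and 2.24 and 2.23 in epiblast. It fell in epiblast, where Tfe3 was highest (-3.23 ± 0.27, SE, limma's adjusted p = 6.8e-05). Of 11 naive pluripotency genes 0 rose and 10 fell in epiblast (median -3.23), and between diapaused ICM and ICM 0 rose and 1 fell (Nr5a2, -1.07 ± 0.25, SE, limma's adjusted p = 0.025). The call of Nr5a2 and any others in that list for diapaused ICM ranged from 0 to 2 as single libraries were left out (ICM replicates 1, 2 and 3 and diapaused ICM replicates 2 and 3 each moved it).

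Some partners of RagC and RagD were also called in epiblast against ICM, where 16.7% of all genes tested were called higher and 13.3% lower. Rraga, which encodes RagA, measured 10.6, 8.85 and 12.5 in ICM, 15.7, 15 and 15.1 in diapaused ICM, and 74.5 and 27.2 in epiblast. It rose by 2.00 ± 0.38 from ICM (SE, limma's adjusted p = 0.0053), with both epiblast libraries above all others and far apart from each other. Lamtor1, the membrane anchor of the Ragulator complex, stood at 31.7 and 13.2 in epiblast against 8.68 ± 1.86 (SD, n = 3) in ICM (1.17 ± 0.37, SE, limma's adjusted p = 0.04), whereas Lamtor2 of the same complex fell by 1.61 (limma's adjusted p = 0.0011). Of 23 Rag partners and sensors 5 rose and 4 fell (median -0.39), a count of 9 that became 3 without epiblast replicate 1. Of 10 mTORC1 genes 1 rose and 3 fell (median -0.19), among them the substrate-binding subunit Rptor, from 7.87 ± 4.34 (SD, n = 3) to 1.34 ± 0.0125 (SD, n = 2). Leaving out single libraries brought that count of 4 down to as low as 1, with ICM replicate 3 and epiblast replicates 1 and 2 each lowering it. Of 21 kinases, phosphatases and binding proteins 2 rose and 3 fell (median -0.20), Ppp2r1a by 1.88 (limma's adjusted p = 6.1e-04), while Ywhaq rose by 1.75 ± 0.25 (SE, limma's adjusted p = 0.0014). Mtor did not pass (-0.36 ± 0.29, SE, limma's adjusted p = 0.37). Of the 10 primitive endoderm markers 0 rose and 6 fell beside Mitf in this comparison. Of the 6 visceral endoderm markers tested 3 rose beside Tfe3 and Rragd, with Ttr at 6.33 and 39.7 in epiblast against at most 0.0205 in ICM, Apoa1 at 8.93 and 18, and Cited1 at 6.6 and 7.84, and 1 fell (Hnf4a). Of the 8 trophectoderm markers tested 1 rose, Eomes, at 19.6 and 8.39 in epiblast against 1.27 ± 0.956 (SD, n = 3) in ICM, and 1 fell (Tead4). The part of these markers in the differences was not tested.

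Between diapaused ICM and epiblast, 4 of the 8 genes were higher in diapaused ICM (Tfeb, Mitf, Flcn and Fnip2) and 1 was lower (Tfe3), where 16% of all genes tested were called higher and 18.6% lower. The median of the 8 was 0.93, against -0.11 over all genes. This comparison shares its libraries with the other 2 and adds no independent evidence to them. Its count of calls also moved most on leaving out libraries: 1 gene, Mitf, was called without epiblast replicate 1, 2 without epiblast replicate 2 and 3 without diapaused ICM replicate 3. Tfeb lost its call in each of these fits and without diapaused ICM replicate 2 (limma's adjusted p = 0.065 to 0.12), and Fnip1 gained one without ICM replicate 2 or diapaused ICM replicate 2 (limma's adjusted p = 0.025 and 0.039). Rragd, lower in diapaused ICM without overlap, was called neither here nor on leaving out any library.

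Of 23 hydrolases and membrane proteins 16 were called higher in diapaused ICM than in epiblast and 0 lower (median 1.87), and of 13 V-ATPase subunits 8 were called higher and 0 lower (median 1.21), while the remaining 7 and 5 did not pass. Cathepsin A (Ctsa) measured 115, 212 and 127 in diapaused ICM against 7.89 and 9.76 in epiblast. Of the 11 other targets 5 were higher and 0 lower (median 0.76), including Gpnmb (4.02 ± 0.34, SE, limma's adjusted p = 9.1e-05) and Gabarap (2.43 ± 0.31, SE, limma's adjusted p = 6.8e-04). Without epiblast replicate 2 the V-ATPase count became 5, and the count of other targets became 3 without diapaused ICM replicate 2 or 3 or either epiblast library. Of the naive pluripotency genes 9 of 11 were higher and 0 lower (median 2.82), with Tfcp2l1 at 61 against 0.732 by group mean. Of 23 Rag partners and sensors 2 were higher, Sesn2 (1.83 ± 0.22, SE, limma's adjusted p = 5.0e-04) and Lamtor2, and 5 lower, among them Rraga and Lamtor1 (median 0.05). Without epiblast replicate 1 that count of 7 became 2, and without ICM replicate 1 or diapaused ICM replicate 2 it became 4. Of 10 mTORC1 genes 2 were higher (Tsc1 and Rptor) and 1 lower (Rheb; median 0.15), a count of 3 that became 1 without epiblast replicate 2. Of 21 kinases, phosphatases and binding proteins 5 were higher and 4 lower (median 0.17), a count of 9 that fell to as low as 4 without an epiblast library. Of the 10 primitive endoderm markers 8 were higher and 0 lower. Of the 6 visceral endoderm markers tested 2 were higher (Apoe and Cubn) and 3 lower (Ttr, Apoa1 and Cited1), and of the 8 trophectoderm markers 2 were higher (Gata3 and Tead4) and 1 lower (Eomes). Their part in these differences was not tested.

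**Figure D3:**
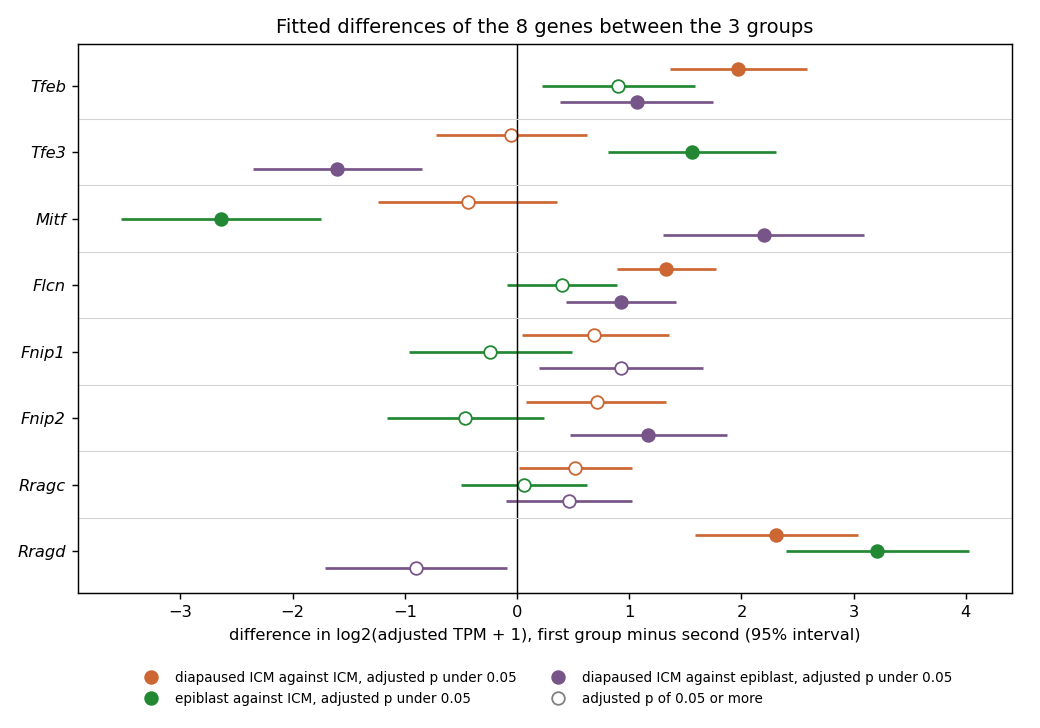
Fitted differences of the 8 genes in log2(adjusted TPM + 1) with 95% intervals, for the 3 comparisons (colours); filled points passed an adjusted p of 0.05. Rragd, Tfeb and Flcn lie to the right of 0 for diapaused ICM against ICM, and Mitf (-2.64) lies far to the left for epiblast against ICM.

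**Figure D4:**
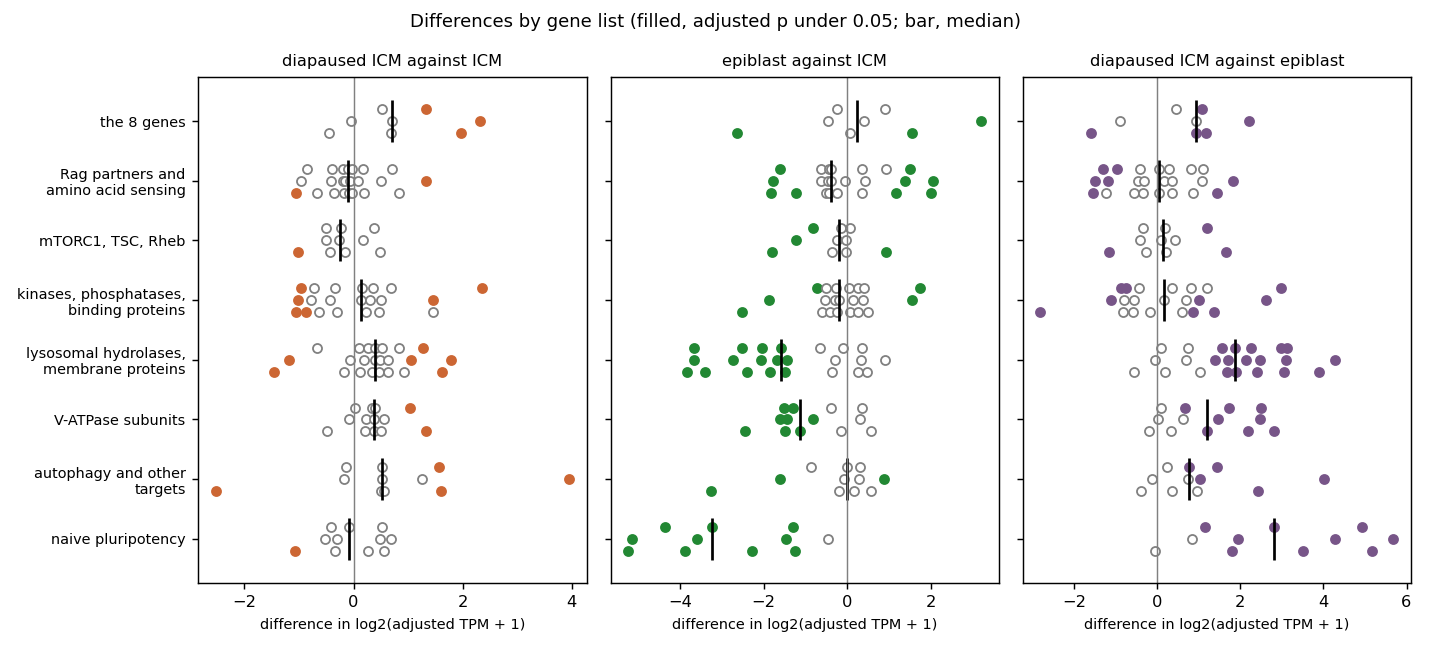
Difference in log2(adjusted TPM + 1) of every tested gene (points) in the 8 genes and the 7 lists, by comparison, with the median as a bar and calls filled (each panel has its own horizontal scale). The hydrolase, V-ATPase and naive pluripotency lists lie mostly left of 0 for epiblast against ICM (medians -1.58, -1.12 and -3.23) and right of 0 for diapaused ICM against epiblast.

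The patterns closest to each gene were sought among 4793 genes with a mean of at least 10 in some group, by Pearson's r of log2(value + 1) over the 8 libraries. The points share their groups, so r mostly reflects the order of the group means and is given as a description. For Tfeb the nearest were Rnf157 (0.988), Ctsh (0.986) and Efemp2 (0.978), whose means in diapaused ICM were 34.5, 20.8 and 17.1 against 2.02, 0.283 and 3.63 in ICM. For Tfe3 they were Spag7 (0.989), Tpr (0.985) and Zfml (0.982), and for Mitf Trim24 (0.989), Fam129a (0.985) and Usp48 (0.985). For Flcn they were TUG1_3 (0.995), Oat (0.984) and App (0.983), and for Rragd Dock11 (0.994), Snhg4 (0.981) and Car4 (0.975). Car4 followed Rragd with means of 1.32 in ICM, 36 in diapaused ICM and 79.2 in epiblast. For Fnip1 the nearest were Zc3h18 (0.97), Pink1 (0.966) and Slc29a1 (0.962), for Fnip2 Cltb (0.973), Sec16a (0.961) and Cxadr (0.96), and for Rragc Btd (0.954), Rpl31-ps18 (0.954) and Hbp1 (0.95).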

How the data were processed

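RNA-seq of 8 libraries in 3 groups was used. The authors deposited a signal per gene whose columns are called adjusted TPM, per the file headers; the adjustment, annotation and strand setting were not given in the sources used here. Antisense, overlapping or near-identical genes therefore cannot be told apart. The submitters' processing notes name Bowtie 0.12.5, DESeq (version not given) and mm9 without their roles. Columns do not share a total, so the values were treated as a signal and not as TPM, the unit first assumed, and the test on a log scale was kept. Without read counts the depth is unknown, so counting intervals are left out.

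The 17698 genes that reached 1 in 2 or more libraries were tested on log2(value + 1) with limma 3.58.1 in R 4.3.3, with a mean per group over all 8 libraries, a variance trend on mean level, two-sided moderated tests and Benjamini-Hochberg adjustment over all tested genes at 0.05. P-values measure the spread between pools. Group means are of adjusted TPM. Ratios were tested by exact permutation over libraries (scipy 1.17.1 in Python 3.11.15). The fit was run on values simulated from its own model, with changes placed in diapaused ICM only. That check does not cover changes at low values or the comparisons with epiblast.

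The 8 genes, the 7 lists (Rag partners, mTORC1, kinases and phosphatases, hydrolases and membrane proteins, V-ATPase, autophagy and other targets, naive pluripotency) and the markers were chosen with earlier results of these data known. Beyond the 8 genes, the text names a fixed set of 8 genes, in each comparison up to 3 list genes of smallest adjusted p, defining markers and the 3 genes of highest r per gene, without predicted symbols and small RNAs. Where a symbol in the lists occurred on several lines (359 such lines in the matrix), the line of highest mean was used for it. The fit over all genes kept every line that passed the filter. Alternatives were the offset, the filter, the scaling, the variance model, the libraries fitted and a replicate block.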

Additional observations from a re-analysis of the deposited data

How the results depend on the processing

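Of 405 refitted differences of the 8 genes, 372 kept their direction and side of the threshold, 14 lost a call, 12 gained one and 7 changed direction, none of these called in any fit. Rragc between epiblast and ICM turned from 0.06 to -0.05 (quantile normalization), -0.10 (rescaled), -0.02 (replicate block), -0.05 (without ICM replicate 2) and -0.03 (without ICM replicate 3), within -0.05 to 0.25 over the libraries left out. Tfe3 between diapaused ICM and ICM turned from -0.05 to 0.20 without ICM replicate 3 and 0.13 without diapaused ICM replicate 1, within -0.32 to 0.20. The 3 calls between diapaused ICM and ICM held in all 17 alternatives (limma's adjusted p at most 0.021, 0.014 and 0.023 for Tfeb, Flcn and Rragd). Between diapaused ICM and epiblast, 5 genes were called, but 3 with no filter on low values and from 1 to 6 on leaving out single libraries; without an epiblast library, the remaining one is assumed to vary like the other groups. More genes are tested without the filter, and otherwise the cause was not tested. Leaving out single libraries gave 3 to 4 calls between diapaused ICM and ICM and 2 to 4 between epiblast and ICM, where Tfeb was called with an offset of 0.1 (0.034), a minimum value of 5 (0.044), only the 2 groups fitted (0.039) or without diapaused ICM replicate 1 (0.024).

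Same-numbered ICM and diapaused ICM libraries deviated together with r of 0.0175, 0.103 and 0.131. Differently numbered ones ranged from -0.148 to 0.033. These few weak correlations cannot decide whether the numbers pair the libraries. With the replicate block the calls numbered 3, 3 and 5, in the order of the report; between diapaused ICM and epiblast Tfeb was lost (0.054) and Fnip1 gained (0.045).

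Over all genes, the 2360 calls between diapaused ICM and ICM became 1278 without the filter and 1404 without ICM replicate 1. The 5324 between epiblast and ICM became 1788 and 2618 without epiblast replicates 1 and 2, and the 6113 between diapaused ICM and epiblast became 2539 and 3196. Rescaling without the 100 most abundant genes moved the split of higher and lower calls from 1331 and 1029 to 1105 and 1302 between diapaused ICM and ICM and from 2963 and 2361 to 1996 and 2705 between epiblast and ICM, with the median of all genes shifting from 0.00 to -0.10 and from 0.14 to 0.00. Of 357 list counts, 49 moved by over 1.5 times. With an offset of 5 the Rragd to Rragc differences shrank to 1.24, 2.33 and -1.08 and the Tfe3 to Tfeb differences against diapaused ICM to -1.01 and -1.74. The differences in the Fnip2 to Fnip1 ratio took both signs across alternatives in each comparison, and so did the Tfe3 to Tfeb difference between epiblast and ICM.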
